A study of Mus musculus with 30 samples.

Results

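The mRNA levels of 10 genes of the circadian clock were followed in kidney and gastrocnemius muscle of mice fed a chow diet (CD), a Western diet (WD) or a WD combined with CHP. The genes were chosen by symbol: Arntl, Clock, Npas2, Per1, Per2, Per3, Nr1d1, Nr1d2, Dbp and Ciart. All 10 were found among the 54838 genes listed for kidney and the 55487 listed for gastrocnemius. The mice were male wild-type C57BL/6J, moved to thermoneutral housing at 30 to 32 °C at 6 weeks of age and placed on their diet at Week 7. CHP is cyclo(His-Pro), a cyclic dipeptide of histidine and proline, and was gavaged from Week 7 at a dose of 20 mg/kg, 3 times a week, whereas the CD and WD groups were gavaged with water. All groups thus shared the strain, the sex, the warm housing and the gavage. Tissues were taken in Week 24 once the mice had fasted for 3 h, and each of the 3 groups had 5 libraries per tissue, 30 in all. The clock time of collection is not given in the sources used here, and neither is which libraries share a mouse. The paper lists 24 mice aged 24 weeks, fewer than the 30 libraries, so some mice must have given both tissues. With 1 time point per mouse, a shift in the timing of a rhythm and a change in its level cannot be told apart. In bulk tissue, fewer cells of a type and less RNA per cell cannot be told apart either.

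The mammalian clock is a feedback loop of transcription that runs in nearly every cell with a period close to a day. The proteins of Arntl (also called Bmal1) and Clock, or its relative Npas2, bind E-boxes in DNA as pairs and activate the Per genes, the nuclear receptor genes Nr1d1 and Nr1d2 (REV-ERBα and β), Dbp and Ciart (CHRONO). The PER proteins and CIART then repress the activators, whereas the REV-ERB receptors repress Arntl and Npas2 through RORE sites, and DBP activates genes that carry D-boxes. Arntl and Npas2 therefore peak at a roughly opposite time of day from Dbp, Per3 and the Nr1d genes. In kidney the clock sets daily rhythms of salt and water handling, and in muscle those of glucose use.

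In GRCm38, the members lie at chr7:113207465-113314126 on the plus strand (Arntl), chr5:76209868-76304792 on the minus strand (Clock), chr1:39193731-39363236 on the plus strand (Npas2), chr11:69095217-69109960 on the plus strand (Per1) and chr1:91415982-91459324 on the minus strand (Per2). Per3 lies at chr4:151003652-151044665 (minus), Nr1d1 at chr11:98767932-98775333 (minus), Nr1d2 at chr14:18204054-18239127 (minus), Dbp at chr7:45705088-45710203 (plus) and Ciart at chr3:95878503-95882251 (minus). All 10 are annotated as protein-coding. Nr1d1 shares 263 exonic bases, 8.55% of its own, with Thra, the thyroid hormone receptor α gene on the opposite strand. Dbp shares 539 exonic bases, 18.01% of its own, with Sphk2 on the opposite strand. Whether the counting used strand is not given, so reads from these stretches may belong to either gene.

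RefSeq windows of 250 bases before to 50 bases after a transcription start site (GRCm38.p6) were read for 9 of the 10 members, and that of Per2 was not analysed here. These windows were searched on both strands for the E-box CACGTG, the related E′-box CACGTT, the D-box TTATGTAA and the RORE core TAGGTCA or TGGGTCA. No 2 of these motifs overlap in the windows printed here. Of 32851 mouse promoter windows of the same length, 7.15% held the E-box, 4.68% the E′-box, 0.938% the D-box and 6.45% the RORE core. Ciart held 3 E-boxes, which begin at positions -116, -58 and -44 from the start site, and Per1 held 1 at -166 at the first of its start sites. Per3 held 2 D-boxes, at -205 and -158. Nr1d1 held 1 E′-box, read on the other strand, at -28. The second start site of Arntl had a RORE core at position 31, within the transcript. No match lay in the windows of Clock, Npas2, Nr1d2 and Dbp. The windows of Ciart, Per3, Nr1d1 and Arntl are shown because each carries a motif of one arm of the loop, and their levels are set against each other below. Capitals mark the motifs, and each sequence reads 5′ to 3′ along the gene's own strand: Ciart at chr3:95882179-95882478 (minus), Per3 at chr4:151044616-151044915 (minus), Nr1d1 at chr11:98775328-98775627 (minus) and Arntl at chr7:113207261-113207560 (plus).
Ciart: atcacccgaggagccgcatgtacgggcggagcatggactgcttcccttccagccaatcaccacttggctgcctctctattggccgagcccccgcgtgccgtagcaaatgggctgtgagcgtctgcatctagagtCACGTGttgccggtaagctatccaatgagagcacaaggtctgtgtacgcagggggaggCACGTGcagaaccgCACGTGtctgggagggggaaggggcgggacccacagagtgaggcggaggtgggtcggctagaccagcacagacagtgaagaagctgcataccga
Per3: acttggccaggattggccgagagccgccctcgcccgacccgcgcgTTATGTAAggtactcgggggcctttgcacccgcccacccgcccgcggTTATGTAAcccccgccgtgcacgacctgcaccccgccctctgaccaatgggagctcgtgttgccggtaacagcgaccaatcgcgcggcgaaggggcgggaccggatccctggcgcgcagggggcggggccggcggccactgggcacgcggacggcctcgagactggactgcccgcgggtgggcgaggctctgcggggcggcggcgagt
Nr1d1: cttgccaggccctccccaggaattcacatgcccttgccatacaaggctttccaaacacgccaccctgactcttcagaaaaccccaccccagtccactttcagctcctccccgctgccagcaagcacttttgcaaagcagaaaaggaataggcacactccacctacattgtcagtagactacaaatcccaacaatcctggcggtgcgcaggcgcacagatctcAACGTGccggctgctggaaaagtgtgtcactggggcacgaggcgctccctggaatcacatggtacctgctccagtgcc
Arntl: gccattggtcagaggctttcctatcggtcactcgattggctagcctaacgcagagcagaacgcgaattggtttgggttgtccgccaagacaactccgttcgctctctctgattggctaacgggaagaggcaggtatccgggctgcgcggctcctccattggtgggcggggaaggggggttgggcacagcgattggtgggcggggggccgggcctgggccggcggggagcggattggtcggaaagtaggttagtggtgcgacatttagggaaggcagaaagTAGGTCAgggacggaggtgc

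Total counts ranged from 37189192 to 38211422 per kidney library and from 50319024 to 53282969 per gastrocnemius library. The mitochondrial share overlapped between the groups. In kidney it was 17.8% to 19.6% in CD, 18.7% to 20.9% in WD and 18.9% to 21.1% in WD+CHP, and in gastrocnemius 7.74% to 10.2%, 9.09% to 10.5% and 9.49% to 11.5%. Its part in the differences between groups was not tested. The sample labels name frozen liver as the extracted material of all 30 libraries. The kidney libraries kept 11 of 11 proximal tubule markers and 4 of 11 fast-fibre markers after low counts were filtered, and the gastrocnemius libraries kept 1 and 11. The summed level of 6 hepatocyte markers was 81.6 to 758.7 CPM (counts scaled to the library total) in kidney, where WD replicate 5 had the highest value and all others were at most 255 CPM, and 0.362 to 60.4 CPM in gastrocnemius, where CD replicate 1 and WD replicate 3 stood above the rest. Without WD replicate 5, the kidney WD vs. CD calls of Per2 (adjusted p = 0.0143) and Ciart (0.0449) described below held. In gastrocnemius, 7 adipocyte markers summed to 112.5 to 185 CPM in CD, 166.8 to 217.5 in WD and 98.1 to 162.3 in WD+CHP. These markers did not move together. By edgeR, 4 were called higher in WD than in CD (Adipoq, Cidec, Lep and Plin1) and 1, Cfd, was called lower. Levels are given as CPM after TMM scaling, and differences as log2 fold changes from edgeR's quasi-likelihood F test with Benjamini-Hochberg adjustment over all genes tested and a threshold of 0.05.

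Per kilobase of exon, Nr1d1 had the highest mean of the members in every group of both tissues. In WD and WD+CHP kidney, its range overlapped that of Nr1d2. In CD kidney Nr1d1 reached 36.1 ± 7.40 CPM per kb (SD, n = 5), followed by Nr1d2 at 18.4 ± 2.84, and neither range overlapped that of the next gene. Dbp came next in kidney at 8.43 ± 4.31 CPM per kb, and Arntl and Ciart were last at 1.69 ± 0.764 and 1.38 ± 0.533, with overlapping ranges. In CD gastrocnemius Nr1d1 stood at 82.6 ± 15.6 CPM per kb, well apart from Dbp at 20.3 ± 6.89 and Nr1d2 at 18.5 ± 3.45, which overlapped. Npas2 was the lowest member in muscle at 0.440 ± 0.217 CPM per kb and lay below the range of Clock, its relative, at 1.66 ± 0.135. In CD kidney, Npas2 at 2.93 ± 2.03 CPM per kb overlapped Clock at 3.41 ± 0.251.

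Whether the WD changed the clock genes in kidney was asked by comparing WD with CD. Per2 and Ciart, both repressors of the loop, were higher in the WD group, and every WD library lay above every CD library for both. No member was called lower, although the estimates of Npas2, Arntl and Nr1d1 were below 0. Thus 2 of 10 members were called, beside 9.65% of the 17120 genes tested (4.62% called higher and 5.03% lower), and 5 had an unadjusted p under 0.05, beside 24.9% of all genes. Groups did not overlap for 2 members, beside 8.70% of all genes. The median absolute log2 fold change was 0.47 for the members and 0.10 for all genes. In WD+CHP vs. WD kidney, where 0 members were called, these medians were 0.13 and 0.08.

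Per2 measured 13.9, 15.8, 12.4, 34.1 and 25.8 CPM in the 5 CD kidneys, 57.4, 46.5, 44.1, 37.9 and 52.0 in WD and 27.7, 31.1, 48.7, 63.0 and 42.2 in WD+CHP. The WD values thus lay above all CD values, and the WD+CHP values spread over both. The means were 20.4 ± 9.27 (SD, n = 5), 47.6 ± 7.47 and 42.5 ± 14.2 CPM. The WD vs. CD log2 fold change of Per2 was 1.22 (SE 0.258, edgeR adjusted p = 0.00749).

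Ciart is a low gene, with 77 to 498 counts per kidney library. It measured 2.15, 2.65, 2.01, 4.67 and 4.12 CPM in CD, 5.91, 7.55, 5.33, 9.31 and 7.29 in WD and 3.03, 5.97, 13.8, 8.79 and 7.47 in WD+CHP. All WD kidneys were above all CD kidneys, and WD+CHP replicate 3 was the highest of the 15 libraries. Between WD and CD, the log2 fold change of Ciart was 1.18 (SE 0.320, edgeR adjusted p = 0.0284). The call was lost when CD replicate 1 (adjusted p = 0.0685), CD replicate 2 (0.0631), CD replicate 3 (0.0642), WD replicate 2 (0.0537) or WD replicate 4 (0.0655) was left out.

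Among the activators, Arntl measured 15.3, 12.9, 20.9, 8.02 and 6.62 CPM in CD kidney, 7.10, 8.88, 11.2, 7.70 and 4.81 in WD and 10.9, 10.6, 3.39, 4.52 and 10.2 in WD+CHP. The CD values reached higher than those of either other group, and all 3 groups overlapped. The WD vs. CD log2 fold change of Arntl was -0.68 (SE 0.334, adjusted p = 0.216). Within each group, Npas2 put the libraries in the same order, with 19.9, 11.7, 27.8, 5.96 and 4.81 CPM in CD, 4.78, 5.96, 8.69, 5.59 and 2.40 in WD and 8.85, 7.50, 2.64, 3.47 and 6.04 in WD+CHP. CD replicates 1, 2 and 3 stood above every other library, whereas CD replicates 4 and 5 lay among the WD values. Its log2 fold change was -1.36 (SE 0.443, edgeR adjusted p = 0.0623), and it passed the threshold without CD replicate 4 (adjusted p = 0.0329), without CD replicate 5 (0.0307) or with no filter on low counts (0.0353). Clock was nearly flat, at 46.8 ± 3.44 CPM in CD and 49.7 ± 4.40 in WD.

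Of the receptors, Nr1d1 measured 86.9, 94.8, 111, 117 and 146 CPM in CD kidney, 73.5, 84.3, 57.6, 88.9 and 108 in WD and 79.7, 80.8, 87.7, 61.7 and 91.7 in WD+CHP. The groups overlapped, and the WD vs. CD log2 fold change was -0.43 (SE 0.154, edgeR adjusted p = 0.0917). It was called without WD replicate 5 (adjusted p = 0.0349). Its antisense neighbour Thra measured 59.9 to 67.6 CPM in CD and 48.1 to 53.6 in WD, a log2 fold change of -0.35 (SE 0.0562, adjusted p = 0.00129), and the part of shared reads in the Nr1d1 value was not tested. Nr1d2 did not pass the test, with 99.5 ± 15.3 CPM in CD and 108 ± 12.2 in WD. Dbp, a clock-driven transcription factor, ranged from 11.8 to 41.5 CPM in CD and from 21.3 to 49.9 in WD, and its log2 fold change of 0.52 (SE 0.327) did not pass the test (adjusted p = 0.349). Per1 and Per3 had estimates of 0.36 (SE 0.242) and 0.37 (SE 0.158), neither past the threshold.

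**Figure D1:**
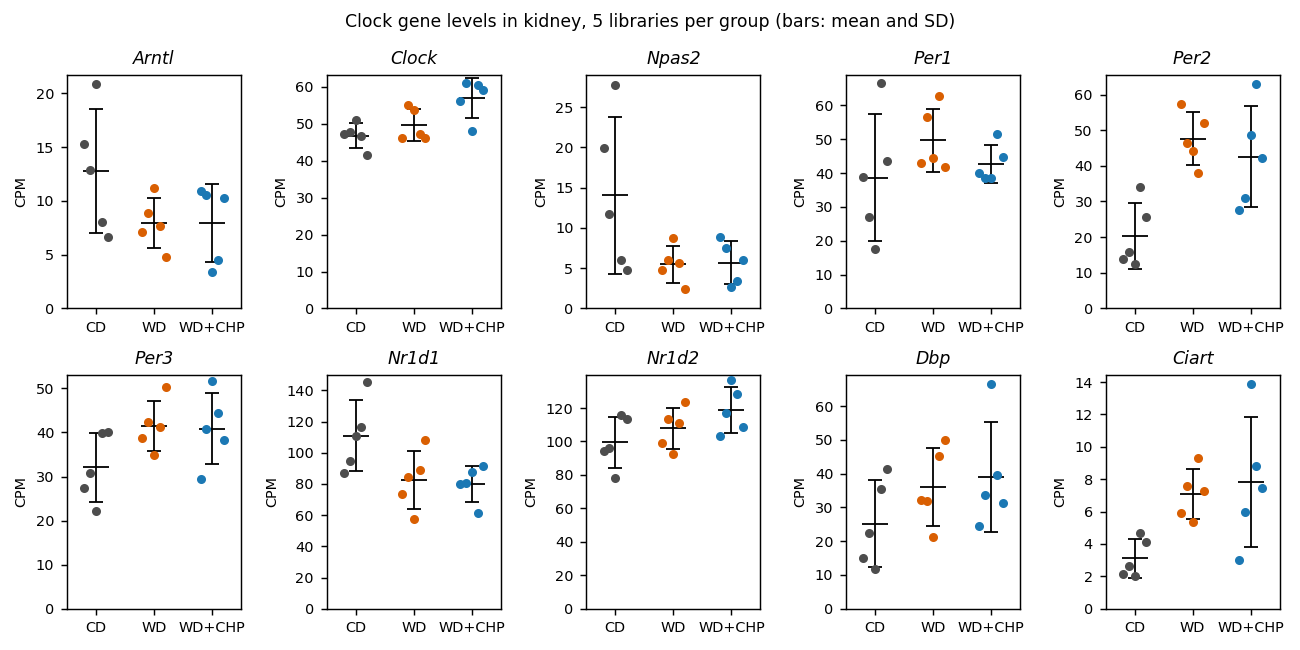
Level in CPM (y axis, from 0) of the 10 clock genes in each of 5 kidney libraries per group (x axis, CD, WD and WD+CHP), with bars for the mean and SD. For Per2 and Ciart the 5 WD points lie above the 5 CD points, whereas Arntl and Npas2 spread most within CD.

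Adding CHP to the WD was not followed by a called change of any member in kidney. By edgeR, 0 of 10 members were called in WD+CHP vs. WD, beside 0.105% of all genes, and DESeq2 and limma-voom also called 0. The groups overlapped for all 10, beside 2.36% of all genes whose groups did not. At an unadjusted p under 0.05 there was 1 member, beside 11.4% of all genes. This was Clock, at 46.2, 55.1, 53.8, 47.1 and 46.1 CPM in WD and 56.1, 61.1, 48.2, 60.4 and 59.2 in WD+CHP. All WD+CHP libraries other than replicate 3 lay above every WD library. The log2 fold change of Clock was 0.20 (SE 0.0719, edgeR adjusted p = 0.297). Estimates for the other 9 lay between -0.22 (Per1) and 0.14 (Ciart and Nr1d2), with standard errors of 0.104 to 0.463. The widest error was that of Npas2 (0.06, SE 0.463). Arntl (0.0047, SE 0.343), Ciart, Nr1d1, Dbp, Npas2 and Per3 changed the sign of their small estimates when some single library was left out.

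Set against CD, the WD+CHP kidneys had 3 of 10 members called, all higher, beside 12.1% of all genes called and 6.25% called higher. With total-count scaling the calls over all genes moved from 1070 higher and 1000 lower to 660 and 1814, whereas Per2, Ciart and Clock were called higher under both and Nr1d1 was then called lower (-0.52, adjusted p = 0.0401). An unadjusted p under 0.05 was seen for 7 members, beside 27.4% of all genes. This comparison shares its CD libraries with WD vs. CD and is not independent of it. Per2 had a log2 fold change of 1.06 (SE 0.258, adjusted p = 0.0145), Ciart of 1.32 (SE 0.320, adjusted p = 0.0141) and Clock of 0.28 (SE 0.0720, adjusted p = 0.0182). The groups overlapped for all 10 members, whereas they did not for 8.34% of all genes. The Clock call was lost without WD+CHP replicate 4 (adjusted p = 0.0507). Nr1d1 (-0.47, SE 0.154, adjusted p = 0.0579) and Npas2 (-1.30, SE 0.442, adjusted p = 0.0649) stayed above the threshold. Nr1d1 passed it without CD replicate 1 (adjusted p = 0.0418) and with only the 2 groups compared in the fit (0.0445), and Npas2 without CD replicate 4 (0.0375) or CD replicate 5 (0.0374). Per3 (0.35, SE 0.158, adjusted p = 0.166), Nr1d2 (0.26, SE 0.104, adjusted p = 0.118), Arntl (-0.68), Dbp (0.63) and Per1 (0.14) did not pass either.

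In gastrocnemius, WD vs. CD gave a called fall of Nr1d1, the gene of REV-ERBα, and of no other member. Every WD muscle lay below every CD muscle. Thus 1 of 10 members was called, beside 8.63% of the 15419 genes tested (4.67% higher and 3.96% lower), and groups did not overlap for 1 member, beside 7.84% of all genes. An unadjusted p under 0.05 was seen for 4 members, beside 23.7% of all genes. Scaling by the total count in place of TMM moved the calls over all genes from 720 higher and 610 lower to 1506 and 346, whereas the fall of Nr1d1 was called under both. The median absolute log2 fold change was 0.48 for the members and 0.12 for all genes. In WD+CHP vs. WD muscle, where 0 members were called, these medians were 0.31 and 0.09.

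Nr1d1 measured 281, 321, 224, 246 and 199 CPM in CD muscle, 118, 104, 149.6, 164 and 154 in WD and 238, 176, 147, 166 and 184 in WD+CHP. The WD values lay below all CD values, and WD+CHP values lay between, overlapping both groups. The means were 254 ± 47.9, 138 ± 25.8 and 182 ± 33.9 CPM (SD, n = 5). The WD vs. CD log2 fold change was -0.88 (SE 0.150, edgeR adjusted p = 0.00168). Each of the 10 fits that left out 1 CD or WD library kept the call, with adjusted p from 0.00156 to 0.00661. With the mean adipocyte marker level as a covariate, the estimate was -0.84 and the adjusted p 0.364, in a fit that called 4 genes of all those tested. Over all alternatives run, its adjusted p was 5.26e-07 to 0.364. Thra, on the opposite strand, measured 66.4 to 73.7 CPM in CD and 58.7 to 70.5 in WD, with a log2 fold change of -0.18 (SE 0.0559, adjusted p = 0.0612).

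The activators Arntl and Npas2 had estimates below 0 in muscle, as they did in kidney. Arntl measured 32.6, 35.8, 17.8, 26.7 and 18.0 CPM in CD, 17.8, 16.5, 21.4, 15.3 and 19.5 in WD and 28.5, 13.6, 14.5, 27.6 and 34.5 in WD+CHP. CD and WD+CHP each held both high and low libraries, whereas the WD values lay close together. The WD vs. CD log2 fold change of Arntl was -0.53 (SE 0.247, adjusted p = 0.201). Over the alternatives run other than leaving out a library, this estimate ranged from -0.54 to -0.043. Npas2, at 16 to 190 counts per library, measured 2.71, 3.60, 1.46, 1.77 and 0.999 CPM in CD, 1.24, 1.05, 1.19, 0.498 and 0.517 in WD and 1.62, 0.305, 0.515, 1.53 and 2.23 in WD+CHP. Its log2 fold change was -1.23 (SE 0.451, adjusted p = 0.102). Clock did not pass the test, with 22.8 ± 1.85 CPM in CD and 21.1 ± 2.32 in WD.

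Per2 measured 4.49, 3.92, 21.3, 12.5 and 14.9 CPM in CD muscle, 24.0, 24.6, 16.6, 22.5 and 16.6 in WD and 12.2, 24.4, 27.0, 18.4 and 11.4 in WD+CHP. CD replicates 1 and 2 were the lowest of the 15 libraries, and CD replicate 3 lay within the WD range. Between WD and CD, Per2 had a log2 fold change of 0.87 (SE 0.371, edgeR adjusted p = 0.163). Per1, Per3, Ciart, Nr1d2 and Dbp had estimates between 0.04 and 0.49 and adjusted p between 0.269 and 0.951. The small estimates of Dbp (0.05) and Nr1d2 (0.04) changed sign when some single library was left out.

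**Figure D2:**
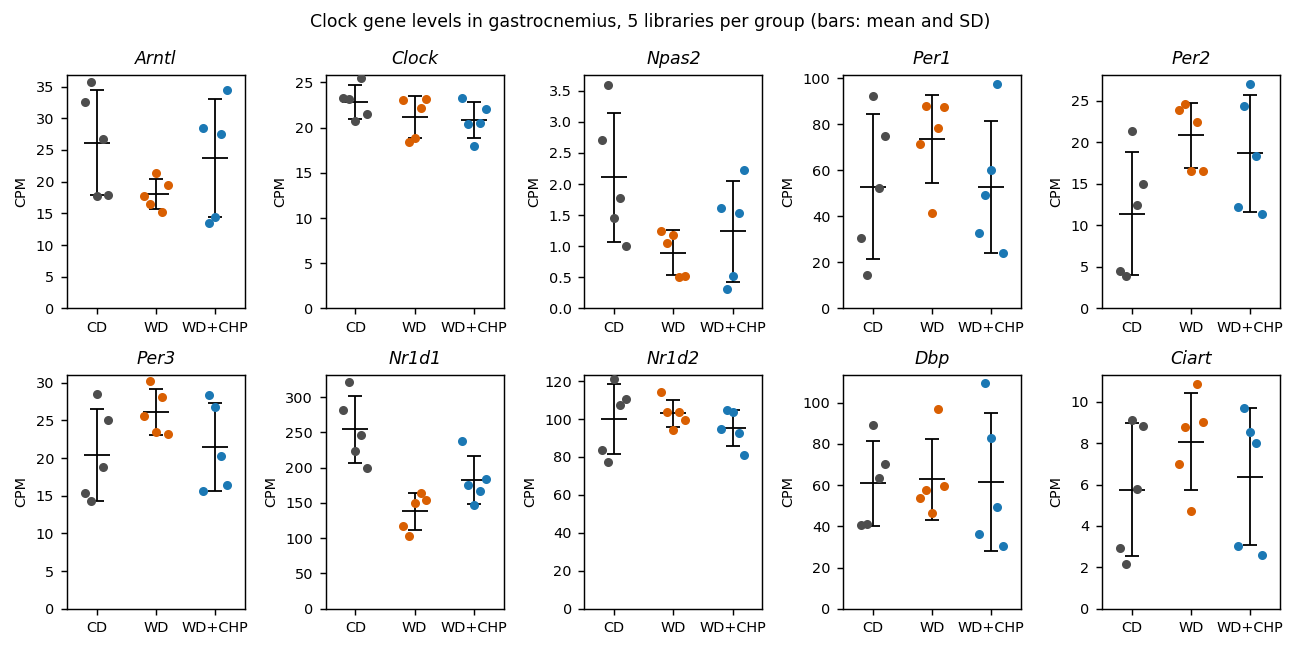
Level in CPM (y axis, from 0) of the 10 clock genes in each of 5 gastrocnemius libraries per group (x axis), with bars for the mean and SD. For Nr1d1 the 5 WD points lie below the 5 CD points, and the WD+CHP points lie between 147 and 238 CPM.

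In WD+CHP vs. WD muscle, edgeR, DESeq2 and limma-voom each called 0 of 10 members, beside 0.409% of all genes called by edgeR. The groups overlapped for all 10, beside 2.83% of all genes whose groups did not. At an unadjusted p under 0.05 there was 1 member, Nr1d1, beside 12.5% of all genes. Its log2 fold change was 0.40 (SE 0.149, edgeR adjusted p = 0.274), and the adjusted p was 0.177 to 0.497 over the fits that left out 1 library. Arntl (0.39, SE 0.247) and Npas2 (0.46, SE 0.466) had estimates above 0, and Per1 (-0.48, SE 0.414), Ciart (-0.34, SE 0.400) and Per3 (-0.28, SE 0.191) below 0. Clock, Per2, Nr1d2 and Dbp had estimates between -0.16 (Per2) and -0.02 (Clock). None of these passed the test. The sum of adipocyte markers was lower in WD+CHP than in WD muscle, and a fit with the mean adipocyte marker level as a covariate called 0 members. In that fit the estimates of Arntl (-0.14), Npas2 (-0.33), Ciart (0.50) and Per3 (0.15) changed sign, as did those of Dbp (-0.03 to 0.91) and Per2 (-0.16 to 0.16), whereas Nr1d1 had 0.36 and Per1 -0.13. Against CD, edgeR called 0 of 10 members in WD+CHP, beside 9.40% of all genes, and 1 was under an unadjusted p of 0.05, beside 25.2%. The groups overlapped for all 10, beside 8.75% of all genes whose groups did not. Limma-voom called 0 and DESeq2 called 1. That member was Nr1d1, with a log2 fold change of -0.48 (SE 0.149, edgeR adjusted p = 0.0526). Without CD replicate 5 (adjusted p = 0.0358) or WD+CHP replicate 1 (0.0192) edgeR called it too. In the same comparison, Npas2 had an estimate of -0.77 (SE 0.438) and Per2 of 0.71 (SE 0.372), neither past the threshold. The other 7 estimates lay between -0.14 (Arntl) and 0.15 (Ciart).

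**Figure D3:**
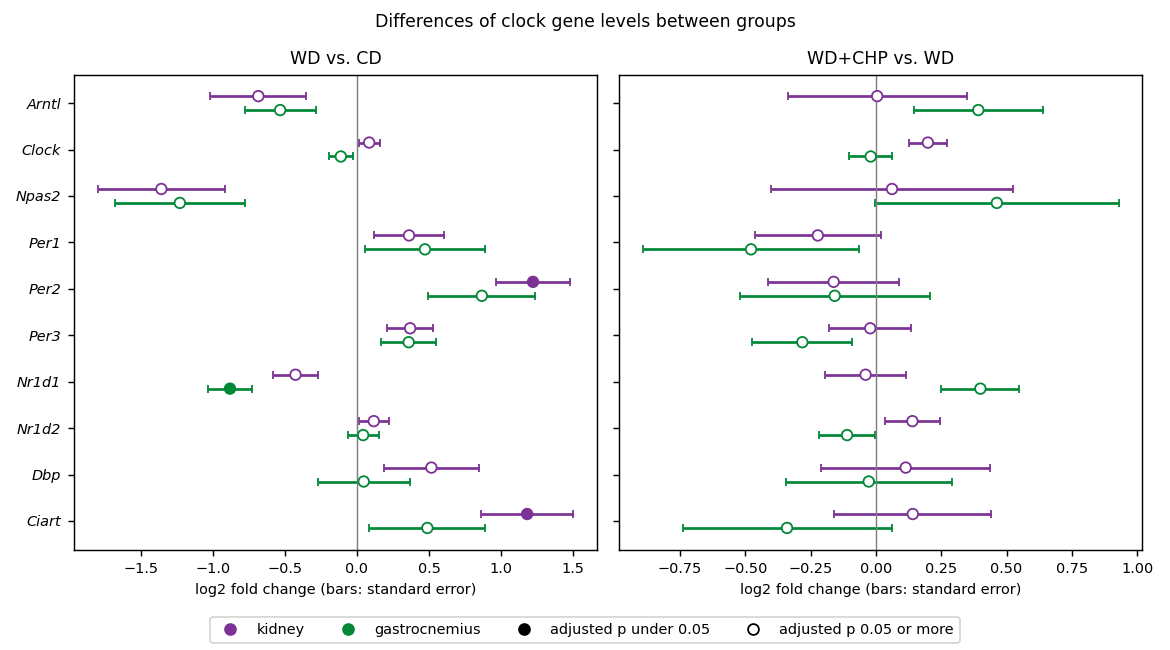
Log2 fold change with its standard error (x axis) of each clock gene (y axis) for WD vs. CD and for WD+CHP vs. WD, in kidney and gastrocnemius, with filled points for an adjusted p under 0.05. Filled points are Per2 and Ciart in kidney and Nr1d1 in gastrocnemius, all in WD vs. CD.

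A call in 1 tissue does not show that the tissues differ, so the difference of the effects was fitted over all 30 libraries. The fit took the libraries as separate, although some mice must have given both tissues. Its standard errors and p-values therefore leave out any pairing within a mouse. In that fit, edgeR called 0 of 10 members for WD vs. CD, beside 4.13% of 18708 genes, and 0 for WD+CHP vs. WD, beside 0.347%. No member had an unadjusted p under 0.05, and limma-voom also called 0 in both. Nr1d1 had the lowest p. Its WD vs. CD log2 fold change was higher in kidney than in gastrocnemius by 0.46 (SE 0.233, unadjusted p = 0.0595, adjusted p = 0.308), and its WD+CHP vs. WD log2 fold change differed by -0.45 in the same direction of subtraction (SE 0.233, unadjusted p = 0.0651, adjusted p = 0.468). For Ciart, the WD vs. CD effect differed by 0.68 (SE 0.553), and for Per2 by 0.35 (SE 0.477).

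Within a group, the clock genes varied widely between libraries. In CD kidney the coefficient of variation was 69.4% for Npas2, 51.1% for Dbp and 48.2% for Per1, but 7.34% for Clock. Over the 15 kidney libraries the highest level of Npas2 was 11.6 times the lowest, that of Ciart 6.88 times, of Arntl 6.15 times and of Clock 1.47 times. In gastrocnemius these ratios were 11.8 for Npas2, 6.90 for Per2, 6.67 for Per1 and 1.42 for Clock. The same library stood at the ends for many genes. CD replicate 3 in kidney had the highest Arntl and Npas2 and the lowest Per1, Per2, Per3, Nr1d2, Dbp and Ciart. In gastrocnemius, CD replicate 2 had the highest Arntl, Npas2 and Nr1d1 and the lowest Per1, Per2, Per3, Nr1d2 and Ciart.

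**Figure D4:**
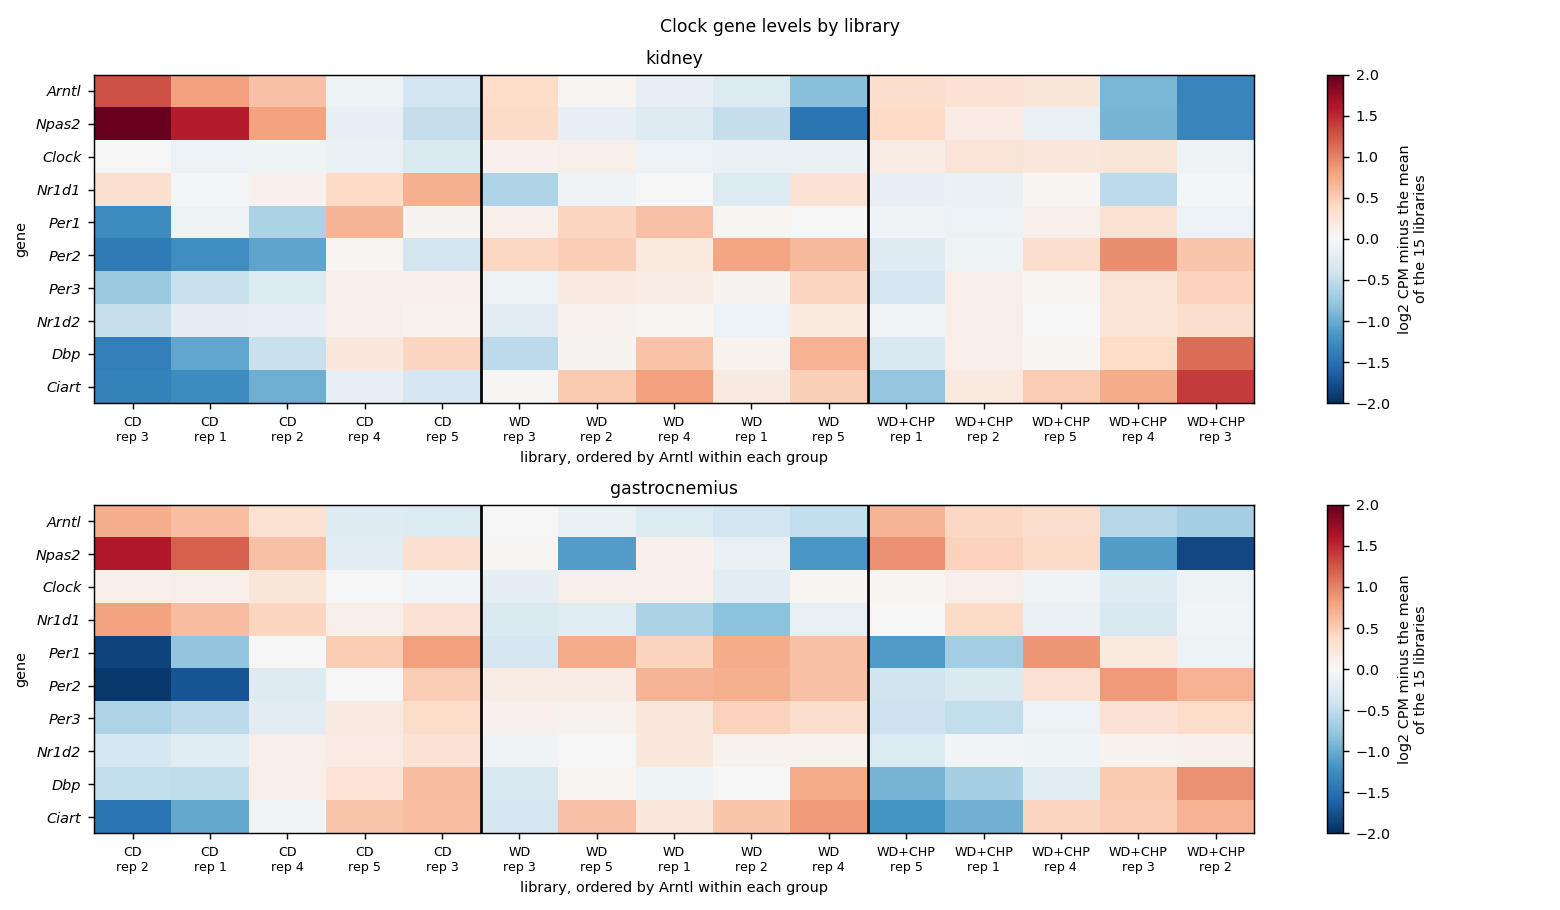
Log2 CPM of each clock gene minus its mean over the 15 libraries of the tissue (colour, red above and blue below), by library (x axis, ordered by Arntl within each group) and gene (y axis). In both tissues Npas2 tends to fall with Arntl from left to right within a group, and Per3, Dbp and Ciart tend to rise.

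To ask whether the members vary together apart from diet and CHP, log2 CPM were centred on each group's mean and set against Arntl. Permutation tests within groups (100000 resamples, two-sided) were adjusted over the 18 relations of both tissues. In kidney, Npas2 rose with Arntl (Pearson r = 0.954, Spearman rho = 0.929, n = 15, adjusted permutation p of 9e-05 for both, from 1e-05, the smallest these resamples can give). Dbp ran opposite to Arntl (r = -0.903, rho = -0.918, permutation p adjusted to the same 9e-05), as did Per3 (r = -0.889, rho = -0.850) and Nr1d2 (r = -0.881, rho = -0.846). Per2 (r = -0.792, rho = -0.811, adjusted permutation p = 0.00645 for r) and Ciart (r = -0.794, rho = -0.793, adjusted permutation p = 0.00391 for r) ran opposite as well. Clock had an r of 0.717 and a rho of 0.696 with Arntl. Without CD replicate 3 and WD+CHP replicate 3, the libraries farthest from the median of Arntl, the relations of Clock (r = 0.486, adjusted permutation p = 0.135) and Ciart (r = -0.663, adjusted permutation p = 0.0641) no longer passed the threshold. Per1 (r = -0.434) and Nr1d1 (r = -0.372) did not pass the test.

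Gastrocnemius gave the same signs apart from Nr1d1. Npas2 rose with Arntl (r = 0.888, rho = 0.886, n = 15, adjusted permutation p = 0.00112 for r). Per3 (r = -0.945, rho = -0.936), Dbp (r = -0.930, rho = -0.914), Ciart (r = -0.861, rho = -0.861), Per2 (r = -0.841, rho = -0.914) and Nr1d2 (r = -0.811, rho = -0.839) ran opposite to it. Nr1d1 rose with Arntl, with r = 0.574 and rho = 0.596 (adjusted permutation p = 0.0402 for r), and Per1 fell, with r = -0.639 and rho = -0.646 (adjusted permutation p = 0.0433 for r). Without CD replicate 2 and WD+CHP replicate 5 the relations of Nr1d1 (r = 0.546) and Per1 (r = -0.437) no longer passed. Clock did not pass (r = 0.497). Between the 2 receptor genes Nr1d1 and Nr1d2, the within-group r was -0.601 in muscle and 0.464 in kidney. This pair was not tested, and all genes of a library share its scaling.

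**Figure D5:**
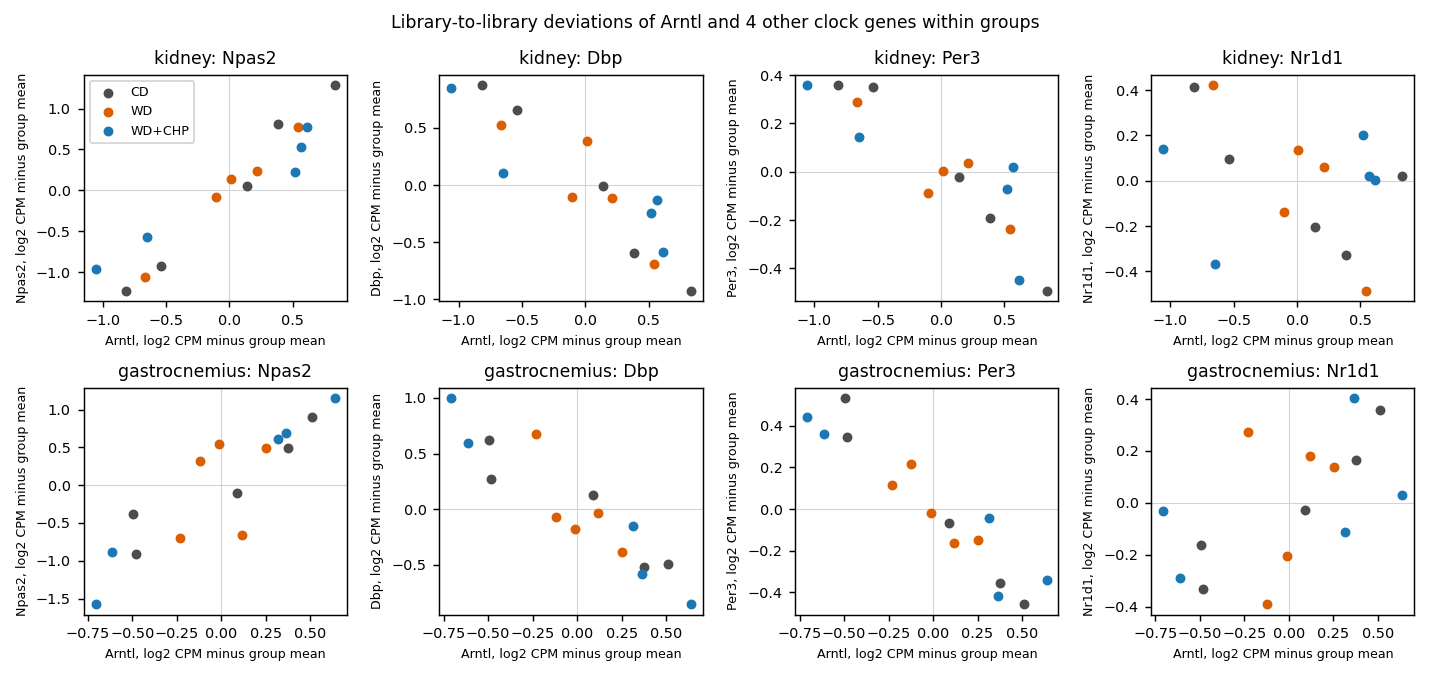
Deviation of log2 CPM from the group mean for Arntl (x axis) and for Npas2, Dbp, Per3 and Nr1d1 (y axis), 1 point per library, coloured by group. Npas2 rises and Dbp and Per3 fall with Arntl in both tissues, whereas Nr1d1 shows an r of -0.372 in kidney and 0.574 in gastrocnemius.

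The difference of log2 CPM between Dbp and Arntl sums up where a library lies along this axis. It was -0.81 to 2.64 in CD kidneys, 0.93 to 3.36 in WD and 1.16 to 4.27 in WD+CHP. In gastrocnemius it was 0.20 to 2.32 in CD, 1.12 to 2.67 in WD and -0.19 to 3.01 in WD+CHP. The ranges of the 3 groups overlapped in both tissues.

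Because Arntl varied so much within groups, the comparisons were refitted with its log2 CPM as a covariate, an alternative chosen after the data had been seen. At equal Arntl, the WD vs. CD log2 fold changes in kidney were 0.95 for Per2 (SE 0.176, edgeR adjusted p = 0.00565) and 0.83 for Ciart (SE 0.220, adjusted p = 0.0351), both still called. That of Npas2 shrank to -0.39 (SE 0.157), and those of Dbp and Per3 to 0.10 and 0.15. Nr1d1 had -0.53 (SE 0.159, adjusted p = 0.0590) in WD vs. CD and -0.57 (SE 0.158, adjusted p = 0.0409) in WD+CHP vs. CD. In gastrocnemius the fall of Nr1d1 was still called, at -0.70 (SE 0.142, adjusted p = 0.00788). Dbp was called lower in WD than in CD muscle at equal Arntl, at -0.50 (SE 0.139, adjusted p = 0.0437), where the fit without the covariate gave 0.05. With the covariate, WD vs. CD called 6.16% of all kidney genes and 6.80% of all gastrocnemius genes. Over the alternatives run for WD vs. CD other than leaving out a library, the adjusted p was 0.0011 to 0.00752 for Per2 and 0.00657 to 0.0384 for Ciart in kidney, and 0.0437 to 1 for Dbp in gastrocnemius. Over the fits without 1 library it was 0.00154 to 0.0229 for Per2, 0.0183 to 0.0685 for Ciart and 0.753 to 0.942 for Dbp.

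Other parts of the loop were read from fixed lists. In WD vs. CD kidney, 0 of 5 repressors and RORs were called by edgeR, and 2 had an unadjusted p under 0.05. Cry1, which represses the activators with the PER proteins, had 0.75 (adjusted p = 0.0556). Of 5 output transcription factors 2 were called higher, Hlf (0.49, adjusted p = 0.00434), a relative of Dbp, and Bhlhe40 (0.56, adjusted p = 0.0174), a repressor at E-boxes. Of 10 kinases, ligases and partners 2 were called lower, among them Csnk1d (-0.12), which encodes a PER kinase. Of 10 genes known to cycle in many tissues 3 were called higher, Lonrf3 (0.76), Wee1 (0.56), a cell cycle kinase gene driven by E-boxes, and Coq10b (0.42), and 7 had an unadjusted p under 0.05. The medians of these 4 lists were 0.22, 0.36, -0.09 and 0.27, beside a median of 0.00 over all genes, of which 4.62% were called higher, 5.03% lower and 24.9% had an unadjusted p under 0.05.

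In WD vs. CD gastrocnemius, 0 of 4 repressors and RORs tested and 0 of 5 output factors were called, with 1 in each list at an unadjusted p under 0.05. Csnk1e, another PER kinase gene, was called lower (-0.14, adjusted p = 0.0386), 1 of 9 in its list. Of the 10 cycling genes, Wee1 was called higher (0.70, adjusted p = 0.0138) and Leo1 lower (-0.40, adjusted p = 0.00157). Of all genes in this comparison, 8.63% were called and 23.7% had an unadjusted p under 0.05. Between WD+CHP and WD, 0 genes of these 4 lists were called by edgeR in either tissue, beside 0.105% of all genes in kidney and 0.409% in gastrocnemius. At an unadjusted p under 0.05 there were 3 in kidney, 1 among the repressors and RORs and 2 among the kinases, ligases and partners, and 1 in gastrocnemius, among the cycling genes, beside 11.4% and 12.5% of all genes. In WD+CHP vs. CD kidney, 0 of 5 repressors and RORs were called, and 1 of 5 output factors, Hlf, was higher. Of 10 kinases, ligases and partners 3 were lower, among them Csnk1d and Csnk1e. Of 10 cycling genes 4 were higher (Coq10b, Lonrf3, Usp2 and Wee1), beside 12.1% of all genes called. In gastrocnemius 1 of 5 output factors was higher (Nfil3) and 1 of 10 cycling genes lower (Leo1). There, 0 of 4 repressors and RORs and 0 of 9 kinases, ligases and partners were called, beside 9.40% of all genes.

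Genes that answer to hormonal and thermal time cues gave mixed results. Of 11 glucocorticoid-responsive genes, which include Per1, 3 were called higher in WD vs. CD kidney, Sgk1 (0.99, adjusted p = 0.00115), a kinase gene of sodium transport, Fkbp5 (0.37) and Errfi1 (0.29), and Pdk4, which is also induced by fasting, was called lower (-2.10, adjusted p = 0.000157), beside 4.62% of all genes called higher and 5.03% lower. In gastrocnemius Pdk4 was the 1 called gene of this list (-0.76, adjusted p = 0.00413), beside 8.63% of all genes called. Of 6 genes for temperature-responsive RNA-binding and heat shock proteins, Cirbp, a cold-inducible RNA-binding protein gene, was called lower in WD vs. CD kidney (-0.53, adjusted p = 0.0229). In WD vs. CD muscle Rbm3, its relative, was lower (-0.37, adjusted p = 0.0202), and the near-identical copies Hspa1a (1.64) and Hspa1b (1.55), whose reads may be split uncertainly, were higher. In WD+CHP vs. WD edgeR called 0 genes of both lists in either tissue, with 3 glucocorticoid-responsive genes in kidney and 2 heat shock or RNA-binding genes in gastrocnemius at an unadjusted p under 0.05, beside 11.4% and 12.5% of all genes. In WD+CHP vs. CD kidney, 3 of the 11 glucocorticoid-responsive genes were called higher (Errfi1, Fkbp5 and Sgk1) and 1 lower (Pdk4). Of the 6 heat shock or RNA-binding genes, 1 was higher (Hspa8) and 1 lower (Cirbp), beside 12.1% of all genes called. In gastrocnemius, 2 of the 11 were called lower (Klf9 and Pdk4). Of the 6, 2 were lower (Cirbp and Rbm3) and 2 higher (Hspa1a and Hspa1b), beside 9.40% of all genes called.

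The genes whose log2 CPM followed a member most closely over the 15 libraries were searched among those with a mean log2 CPM of at least 1, which were 12406 in kidney and 10817 in gastrocnemius. These values include the differences between groups. Outside the members, those nearest to Arntl in kidney were Clpx (r = 0.928), Rtl6 (0.925), Rdh10 (0.888), Dtx4 (0.880) and Pde9a (0.865), all below the 0.956 of Npas2. Those nearest to Dbp were Coq10b (0.890), Atp1b1 (0.885), Tef (0.866), Acat3 (0.852) and Parp16 (0.844). Tef is a close relative of Dbp and binds the same D-box. In gastrocnemius, those near to Arntl included Fgd5 (0.874), Auts2 (0.866), Trp53i11 (0.859) and Fam110b (0.850). Those nearest to Dbp were Cldn12 (0.803), Coq10b (0.803), Ube2t (0.797), Tspan4 (0.796) and Usp2 (0.766). Coq10b was the 1 gene named for Dbp in both tissues.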

How the data were processed

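The authors enriched RNA for polyA, sequenced it on a BGISEQ-500, cleaned the reads with SOAPnuke and aligned them with STAR 2.7.3a, with GRCm38 (mm10) in the submitters' processing notes. They deposited unnormalised counts of the reads that fell on a gene, 1 column per library. The counting tool, annotation and strand setting are not given in the sources used here. All columns were matched to a library by label, and 0 were left over. Liver libraries were not analysed here. The study's methods describe RNA sequenced from each mouse, and the labels number the replicates without naming the mice.

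The members and lists were chosen with earlier results of these data known, and all 10 members are given in each comparison, by name or within a range; from the lists, genes past the threshold are named, and the 5 nearest genes by Pearson r, apart from items that are not reported here. The tests ran in edgeR 4.0.16 under R 4.3.3 (TMM, filterByExpr with a minimum count of 10, 3 groups in 1 quasi-likelihood model per tissue, two-sided, Benjamini-Hochberg over the 17120 kidney and 15419 gastrocnemius genes kept, threshold 0.05). The filter kept all 10 members in both tissues. Log2 CPM used a prior count of 2. DESeq2 1.42.0 and limma-voom (limma 3.58.1) were alternatives, as were other scalings and filters, the replicate block, only the 2 groups compared, an adipocyte covariate and each library left out. A length and GC correction and the Arntl covariate were added after seeing the data. The study's own tests used limma. A standard error is the log2 fold change divided by the root of its F statistic. Loci and exon lengths are from GENCODE M21, which held 54809 kidney and 55227 gastrocnemius identifiers. The scripts were tested on simulated data. No pair within a group agreed within counting error (chi-square per gene of at least 9.06), so no library was taken as a copy. Figures used matplotlib 3.10.9 (Python 3.11.15).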

Additional observations from a re-analysis of the deposited data

Results flagged for a closer look

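Of 60 groups of 5 libraries searched on log2 CPM (10 members, 3 groups and 2 tissues), 1 held a library set apart from the others. Per1 in gastrocnemius of the WD group was 41.5 CPM in replicate 3, and on log2 CPM the gap to its nearest neighbour was 0.719 of the group's whole range, above the critical value of 0.71 for 5 samples. On CPM itself that share was 0.640, below the critical value. The other 4 WD libraries measured 71.3, 88.0, 78.5 and 87.6 CPM. The same library had the lowest Ciart (4.71 CPM) and the highest Arntl (21.4 CPM) of its group. Chance gives such a mark in about 1 of 20 groups.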

How the results depend on the processing

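The called WD vs. CD results of Per2 and Ciart in kidney held in all alternatives run other than leaving out a library, as did those of Per2, Ciart and Clock in kidney WD+CHP vs. CD. Among fits without 1 library, Per2 was called in 10 of 10 and Ciart in 5 of 10 for WD vs. CD (adjusted p up to 0.0685), Per2 and Ciart in 10 of 10 and Clock in 9 of 10 for WD+CHP vs. CD (lost without WD+CHP replicate 4, adjusted p = 0.0507), and Nr1d1 in gastrocnemius WD vs. CD in 10 of 10. The cause of each change below was not tested. Over fits without 1 library, the members called ranged from 1 to 3 in kidney WD vs. CD and from 0 to 1 in gastrocnemius WD+CHP vs. CD. All genes called ranged from 0 to 97 in kidney WD+CHP vs. WD (over 1.5 times away from 18 without each library other than WD replicate 3), from 12 to 92 in gastrocnemius (from 63, without WD replicates 1 and 2 and WD+CHP replicates 1, 3 and 5), and in WD+CHP vs. CD from 1202 to 2150 in kidney (from 2070, without CD replicate 5 and WD+CHP replicates 3 and 4) and from 873 to 1617 in gastrocnemius (from 1450, without CD replicate 3 and WD+CHP replicate 3). Small estimates changed sign in such fits: in kidney WD+CHP vs. WD, Arntl (-0.14 to 0.20), Npas2 (-0.15 to 0.29), Per3 (-0.12 to 0.079), Nr1d1 (-0.14 to 0.081), Dbp (-0.16 to 0.26) and Ciart (-0.16 to 0.35), in gastrocnemius WD vs. CD, Dbp (-0.16 to 0.23) and Nr1d2 (-0.034 to 0.12), and in gastrocnemius WD+CHP vs. WD, Clock (-0.066 to 0.029) and Dbp (-0.34 to 0.18).

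DESeq2 called 194 genes in kidney and 249 in gastrocnemius for WD+CHP vs. WD. The no-filter fit called 37 and 40, and 5 members in kidney WD+CHP vs. CD, where Npas2 and Nr1d1 passed as well; Npas2 also passed in kidney WD vs. CD (-1.35, adjusted p = 0.0353). In gastrocnemius WD+CHP vs. CD, 1 member, Nr1d1, was called by DESeq2, with at least 10 counts in every library, with only the 2 groups compared and with the length and GC correction. With only the 2 groups, Nr1d1 passed in kidney WD+CHP vs. CD (adjusted p = 0.0445), kidney WD+CHP vs. WD called 0 genes at an adjusted p under 0.05, and with the length and GC correction 5. That correction turned the sign of Arntl (-0.0083) and Nr1d1 (0.012) in kidney WD+CHP vs. WD, of Dbp in gastrocnemius WD vs. CD (-0.00048) and of Clock in gastrocnemius WD+CHP vs. WD (0.054). In kidney WD+CHP vs. WD, limma-voom gave Arntl -0.089 and Ciart -0.0082, and total-count scaling gave Arntl -0.018.

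With the Arntl covariate, 1055 genes were called in kidney WD vs. CD, 1200 in kidney WD+CHP vs. CD and 35 in gastrocnemius WD+CHP vs. WD, and 2 members in gastrocnemius WD vs. CD. Signs turned for Nr1d2 in kidney WD vs. CD (-0.030), Ciart in kidney WD+CHP vs. WD (-0.033), Nr1d2 (-0.10), Dbp (-0.50) and Ciart (-0.040) in gastrocnemius WD vs. CD, and Npas2 (-0.32), Per2 (0.18) and Dbp (0.20) in gastrocnemius WD+CHP vs. WD. With the adipocyte covariate in gastrocnemius, WD vs. CD called 4 genes and 0 members, WD+CHP vs. WD called 0 genes, and signs turned in WD vs. CD for Clock (0.0094), Per3 (-0.10), Dbp (-1.01) and Ciart (-0.46) and in WD+CHP vs. WD for Arntl (-0.14), Npas2 (-0.33), Per2 (0.16), Per3 (0.15), Dbp (0.91) and Ciart (0.50). None of these turned values other than that of Dbp with the Arntl covariate in WD vs. CD had an adjusted p under 0.05.

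Same-numbered libraries of different groups did not deviate together, with r from -0.091 to 0.144 in kidney and -0.126 to 0.146 in gastrocnemius and 2 of 15 pairs over 0.1 in each, so the replicate numbers give no pairing. With the replicate block, 70 genes were called in kidney WD+CHP vs. WD, and Nr1d1 passed in kidney WD vs. CD (adjusted p = 0.0499) and WD+CHP vs. CD (0.0362). It changed no other call of a member. In all, 461 of 499 values of members under other settings, and 437 of 480 without 1 library, kept their direction and their side of the threshold. Npas2 had low counts in gastrocnemius, with 16 in its lowest library, and the part of this in its estimates was not tested.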
